A study of Homo sapiens with 18 samples.

Results

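Open chromatin of drug-tolerant persister (DTP) cells was compared with that of the parental PC9 population from which they came. PC9 is an established human lung adenocarcinoma line that carries an activating EGFR mutation and depends on it. Accessibility was measured by ATAC-seq, which marks open DNA by where a transposase can cut it and attach adapters, on cells that had been cryopreserved, thawed, lysed and tagmented. The PC9 group was unsorted and had received the vehicle DMSO, and the DTP group held the cells that survived 8 days in 1 µM erlotinib, a drug that inhibits the EGFR kinase. Both groups had 3 libraries, lettered a, b and c, of the 18 libraries and 6 groups in the series. The other 12 libraries came from PC9 kept 12 h in either DMSO or erlotinib at 1 µM, and sorted afterwards by Aldefluor, a fluorescent aldehyde dehydrogenase (ALDH) substrate, into ALDH-high and ALDH-low fractions. The labels do not say whether the libraries of a group came from separate cultures, so every p-value given here rests on a spread between libraries that may be technical only. All groups derive from 1 cell line. The files list positions and scores without gene levels, so the identity of the cells was not checked against marker genes.

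Peaks of the 6 PC9 and DTP libraries on chromosomes 1 to 22 and X were merged wherever they shared at least 1 bp, which gave 66412 regions. A region was gained if all 3 DTP libraries and no PC9 library had a peak in it, lost in the reverse case, and common if all 6 had one. By this rule 4473 regions were gained, which is 6.74% of all regions, and 2481 were lost, which is 3.74%. A further 24171 regions, 36.4%, were common, and 35287 had some other pattern. Gained and lost regions together are called separated regions below, and 64.3% of these 6954 were gained. A region absent from a list was not called in that library, which can reflect its unknown read depth as well as closed chromatin. The classes follow from the rule, so their sizes are a description and carry no test.

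Accessible regions away from gene starts are often enhancers, which transcription factors open and which differ more between cell states than promoters do. Persister cells survive a lethal dose of a targeted drug without a known resistance mutation, divide little or not at all, and can return to a drug-sensitive state when the drug is withdrawn. That reversibility has made chromatin a main subject of work on them. EGFR signals largely through the MAPK and PI3K pathways, and its inhibition in dependent cells lowers MAPK-driven transcription.

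DTP lists were longer than PC9 lists. The PC9 libraries a, b and c held 40105, 39394 and 41831 peaks, and the DTP libraries 42204, 44874 and 45241. The groups did not overlap, with a mean difference of 3663 peaks (exact two-sided permutation p = 0.1, the smallest that 3 against 3 libraries allow). Called bases came to 42.8 ± 0.625 Mb in DTP and 37.9 ± 0.562 Mb in PC9 (SD, n = 3 each, exact permutation p = 0.1), again without overlap. Median peak width, at 856 ± 25.1 bp in DTP and 833 ± 16.5 bp in PC9, overlapped between the groups (SD, n = 3 each, exact permutation p = 0.3). Peaks outside common regions made up 44.6 ± 2.03% of a DTP list and 39.4 ± 1.82% of a PC9 list (SD, n = 3 each, exact permutation p = 0.1). Because of the length difference, the classes were also formed from the 39394 highest-scoring peaks of each list, the size of the shortest list. This gave 3489 gained and 3013 lost regions, so that 53.7% of separated regions were gained. On those lists the share of peaks outside common regions differed by 0.267 points in place of 5.18, and called bases by 2.41 Mb in place of 4.87 Mb. Median peak width, in contrast, differed by 51.5 bp without overlap (n = 3 each, exact permutation p = 0.1), where the full lists gave 23 bp, and 8.50 bp without DTP a. The excess of gained over lost regions thus moved with list length, and the part of read depth in it was not tested.

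Libraries of the same group resembled each other more than libraries of different groups. Of the regions held by either library of a pair, 70.7 to 71.5% were held by both within DTP and 72.3 to 72.9% within PC9. Between a DTP and a PC9 library the share was 56.6 to 57.1% in all 9 pairs. No library stood apart from its group by this measure.

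Gained and lost regions were narrow beside common ones. The median merged width was 911 bp for gained, 845 bp for lost and 1291 bp for common regions. Over 2000 bp lay 27 gained and 8 lost regions, against 3400 common ones, 14.1% of that class. In single libraries the median called width of gained regions was 766, 745 and 741 bp in DTP a, b and c, and that of lost regions 679, 695 and 677 bp in PC9 a, b and c. Common regions had medians of 1055, 1029 and 1030 bp in DTP and 991, 1005 and 991 bp in PC9. In these regions shared by all libraries, the 3 DTP medians were above the 3 PC9 medians (difference 42.3 bp, n = 3 each, exact permutation p = 0.1). The part of read depth in this difference was not tested.

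The scores of separated regions lay in the lower part of each list. A score is the value the authors' peak caller gave a peak, on a scale that the sources used here do not state, so it was turned into a percentile among the peaks of the same list, with 100 at the top. The median percentile of gained regions was 37.4, 40.1 and 40.0 in DTP a, b and c. For lost regions it was 33.0, 32.7 and 35.6 in PC9 a, b and c. Common regions had medians between 67.8 and 71.4 in all 6 libraries. The lower quartile of the common regions was above the median of the gained or lost regions in every library. The rule selects on calling, which depends on score. This contrast, and that in width, may thus follow in part from the rule and was not tested.

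**Figure D1:**
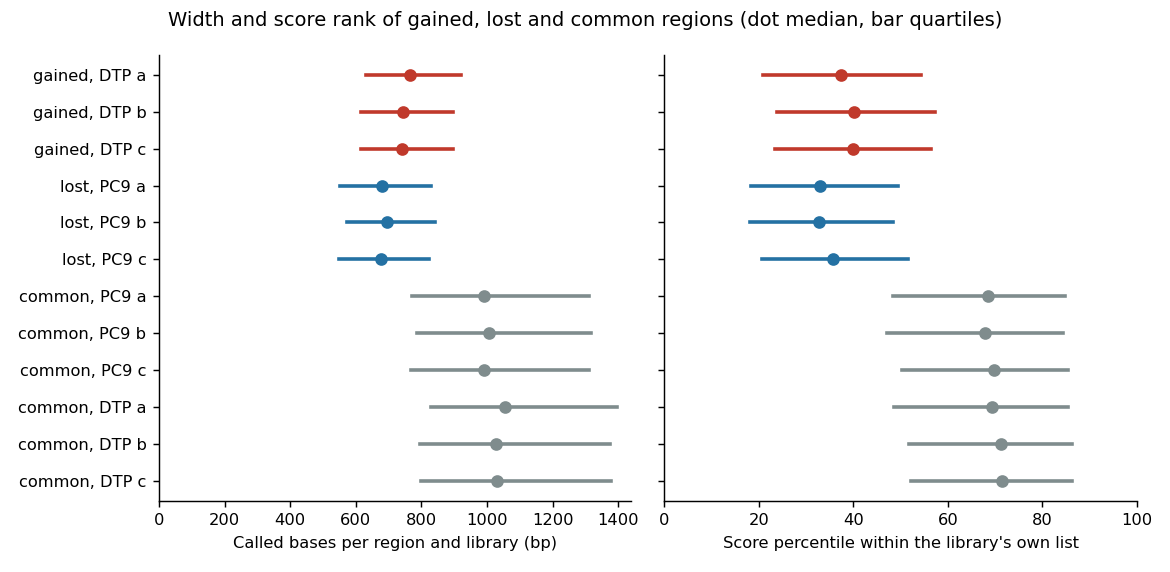
Called width (left, in bp) and within-list score percentile (right) of gained, lost and common regions in each library that held them; dots are medians over regions and bars run between the quartiles. Gained regions (red) centre at 741 to 766 bp and percentiles 37.4 to 40.1, lost regions (blue) at 677 to 695 bp and 32.7 to 35.6, and common regions (grey) are wider and of higher rank in all 6 libraries.

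Few separated regions were strong in every library that held them. Taking for each region the percentile in its weakest library, 724 gained regions (16.2%) and 242 lost regions (9.75%) were above 50. Above 90 lay 16 gained and 2 lost regions. The weakest percentile was below 20 in 43.1% of gained and 51.9% of lost regions. Within a region, the median gap between the highest and lowest percentile of its 3 libraries was 22.2 points in both classes.

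The rule has a sharp edge, and the regions just outside it were many. Another 3914 regions were held by 2 DTP libraries and no PC9 library, with a median width of 744 bp and a median weakest percentile of 11.8, against 911 bp and 23.8 for gained regions. A further 1931 were in all 3 DTP libraries and 1 PC9 library, with a median percentile of 15.5 in that PC9 library. On the other side, 2657 regions were in 2 PC9 libraries and no DTP library, at a median weakest percentile of 10.4 against 19.1 for lost regions. In all 3 PC9 libraries and 1 DTP library were 1728 regions, whose median percentile in that DTP library was 16.7. No single library accounted for most of any of these near misses, since each of the 3 possible libraries gave between 422 and 745 of those with 1 library too many and between 683 and 1622 of those with 1 too few.

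The strongest gained region lay at 1p33, on chromosome 1 from 47269510 to 47271375 (hg19, as are all positions here, counted from 1). It ranked at percentiles 98.5, 98.7 and 97.5 in DTP a, b and c and was called at 1774, 1479 and 1726 bp. All 6 erlotinib-treated sorted libraries also had a peak there, and no DMSO-treated sorted library did. Its calls in the DTP and PC9 libraries were fixed by the rule, so only the sorted libraries add to them.

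Next in order were regions at 2p14, 3q13.12 and 10q21.2. The 2p14 region (chromosome 2, 67066582 to 67067921) had percentiles of 97.4, 98.5 and 97.6, and the 10q21.2 region (chromosome 10, 64343517 to 64344912) of 97.1, 99.3 and 99.3. Neither had a peak in any of the 12 sorted libraries. The 3q13.12 region (chromosome 3, 107741241 to 107742514) reached 97.2, 99.7 and 98.3 and was called in 2 sorted libraries, both ALDH-high and erlotinib-treated. These regions were thus among the top 10% of all 3 persister lists while nearly or wholly uncalled after 12 h of the same drug.

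A gained region at 7p11.2, the band that holds EGFR, ranked eleventh by the same measure. It spans 55013622 to 55015081 on chromosome 7, and its percentiles were 94.7, 92.0 and 96.7. Whether it lies in or near that gene was not determined, because no hg19 gene annotation was used. It was called in 3 of 6 erlotinib-treated and none of the DMSO-treated sorted libraries.

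The 20 gained regions with the highest weakest percentile ranged from 88.5 to 97.5 on that measure and from 975 to 2606 bp in width. None had a common region within 5 kb. Of these 20, 7 were called in all 6 erlotinib-treated and no DMSO-treated sorted library: those at 1p33, 6q21, 11q14.2, 2q31.2 and 17p11.2, the weaker of the pair at 5q34 (chromosome 5, 167761385 to 167762511) and the weaker of the pair at 10q21.2 (chromosome 10, 64083107 to 64084240). Another 9 were called in some erlotinib-treated and no DMSO-treated library. The regions at 2p22.2 and 6q22.31 were called in all 6 erlotinib-treated libraries and in 2 and 1 of the ALDH-high DMSO libraries. The remaining pair, at 2p14 and 10q21.2, was in no sorted library.

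The strongest lost region lay at 3q27.1 (chromosome 3, 183642242 to 183643698), with percentiles of 96.2, 96.3 and 96.4 in PC9 a, b and c. It was called in all 12 sorted libraries, those treated with erlotinib included. The second, at 5q12.3 (chromosome 5, 64061430 to 64062675), had percentiles of 96.2, 96.5 and 90.7. It was called in all 6 DMSO-treated sorted libraries and in 1 library of each erlotinib-treated fraction. At 4q33 (chromosome 4, 170266223 to 170267328) the percentiles were 87.7, 90.6 and 89.9, and again all 12 sorted libraries had a peak.

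Many of the strong lost regions were thus still called after 12 h of erlotinib. Among the 20 lost regions with the highest weakest percentile (76.6 to 96.2, 764 to 1678 bp wide), 8 were called in all 12 sorted libraries. Only those at 6p24.3 (chromosome 6, 7644533 to 7645453) and 3q25.32 (chromosome 3, 158547915 to 158548678) were in all 6 DMSO-treated and no erlotinib-treated libraries. Percentiles at 6p24.3 were 89.3, 92.8 and 84.8, and at 3q25.32 they were 82.4, 77.7 and 77.1. All 20 were called in at least 1 DMSO-treated sorted library, and 2 had a common region within 5 kb. Over all lost regions the share called in all 12 sorted libraries was 2.46%, and over common regions 58.0%.

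**Figure D2:**
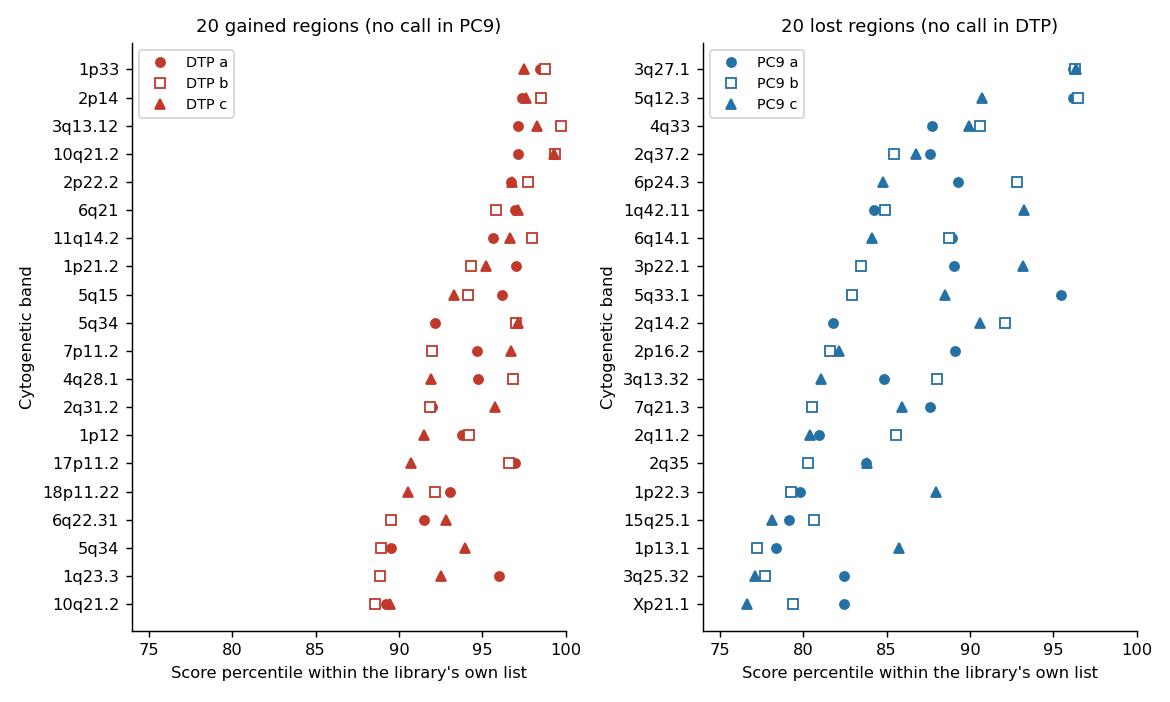
Within-list score percentile (horizontal axis) of the 20 gained regions in the 3 DTP libraries (left) and the 20 lost regions in the 3 PC9 libraries (right) with the highest percentile in their weakest library, labelled by cytogenetic band; symbols mark libraries a, b and c. The weakest percentile runs from 88.5 to 97.5 for the gained regions and from 76.6 to 96.2 for the lost ones.

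Of the 8 widest gained regions, 7 had a weakest percentile of at most 13.2, although over all gained regions width and weakest percentile rose together (Spearman's rho 0.348 across regions, and 0.222 for lost regions). The widest gained region, at 7p22.1 (chromosome 7, 5465963 to 5470220), merged to 4258 bp from calls of 1451, 3052 and 4258 bp. Its percentiles were 10.8, 23.4 and 11.9 in DTP a, b and c. It was called in all 3 ALDH-high erlotinib libraries and 1 ALDH-low DMSO library. The fourth widest, at 6p21.2 (chromosome 6, 36645784 to 36648687), lay in the band that holds CDKN1A, which encodes the cell cycle inhibitor p21, though its place relative to that gene was not determined. It was called at 1260, 1623 and 2567 bp with percentiles of 1.17, 13.2 and 8.87, and all 12 sorted libraries, DMSO-treated ones included, had a peak in it. The exception, at 4q28.1 (2606 bp), was also among the 20 strongest, with percentiles of 94.8, 96.9 and 91.9. Its width came from DTP c alone, with calls of 1240, 1134 and 2606 bp.

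The widest lost region, at 6q23.2 (chromosome 6, 133139512 to 133142828), covered 3317 bp from calls of 1064, 3082 and 3290 bp in PC9 a, b and c. Its percentiles were 54.9, 33.4 and 59.3. The 8 widest lost regions had weakest percentiles between 8.60 and 50.8, beside a median of 19.1 over all lost regions. None of them was among the 20 strongest. A region at 3q28 (chromosome 3, 189626022 to 189628123) had percentiles of 50.8, 66.9 and 76.7 and was called in all 6 DMSO-treated sorted libraries but in 1 erlotinib-treated library. That band holds TP63, a squamous epithelial transcription factor gene, and the region's place relative to it was not determined.

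Gained regions often had another gained region nearby. The median distance from a gained region to the nearest other gained region was 144 kb, and 24.7% had one within 50 kb. Lost regions were sparser, with a median of 230 kb to the next lost region and 16.0% within 50 kb. Common regions had a gained region within 50 kb in 21.7% and a lost region in 14.7% of cases, so gained and lost regions were a little nearer to their own class than common regions were to them. A gained and a lost region were within 50 kb of each other in 12.3% of gained and 21.1% of lost regions.

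Within 50 kb of a separated region, the direction leaned to the same class, but at shorter distances it did not. Among the 1497 gained regions with another separated region within 50 kb, the nearest was gained in 68.3%, where 64.3% of all separated regions were gained. Among the 814 such lost regions it was lost in 41.8%, where 35.7% of separated regions were lost. With lists of equal size the figures were 57.5% against 53.7% for gained and 52.1% against 46.3% for lost. Within 10 kb the lean was not seen. The share was 59.2% of 404 gained regions, below the 64.3% over all separated regions, and 35.5% of 259 lost regions. Within 5 kb, 114 gained regions had a lost region and 74 another gained one. At that distance 114 lost regions had a gained region and 27 another lost one. No test was made of these shares, because regions are not replicates.

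Gained regions stood farther from common regions than lost regions did. The nearest common region was at a median of 29.0 kb from a gained and 22.4 kb from a lost region, beside 22.7 kb between common regions. Within 5 kb, 7.38% of gained, 13.5% of lost and 8.62% of common regions had another common region. Within 2 kb the shares were 2.21%, 5.76% and 2.25%. With scores of at least 100 the shares within 5 kb were 4.83% of gained and 7.88% of lost regions. Most regions of all 3 classes thus had no common region as close as 5 kb.

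**Figure D3:**
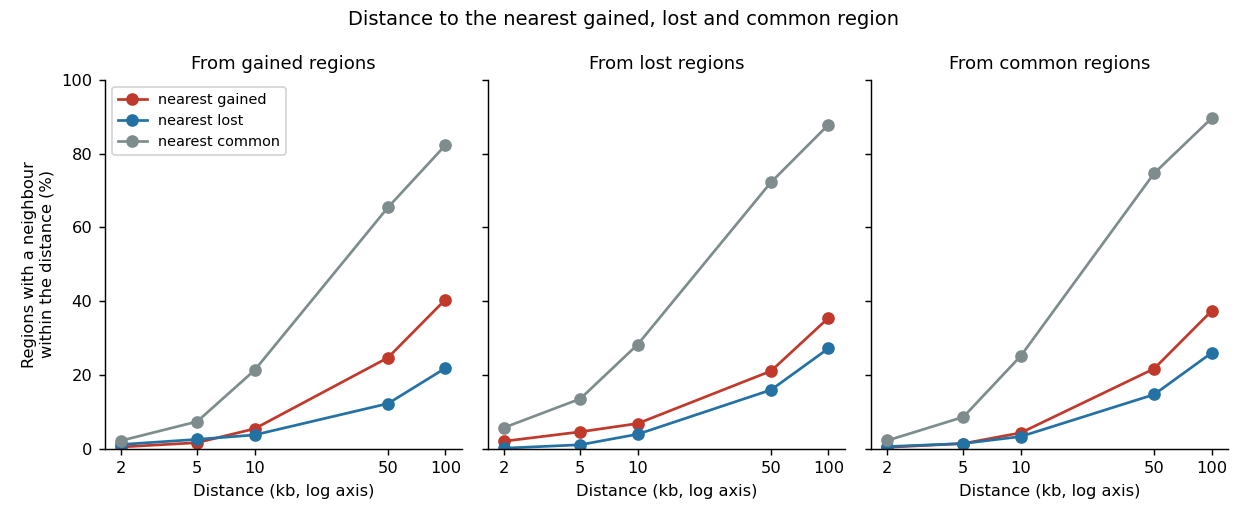
Share of gained, lost and common regions (panels, in %) with a gained (red), lost (blue) or common (grey) region within 2, 5, 10, 50 or 100 kb (log axis). At 50 kb 24.7% of gained regions have another gained one, against 21.1% of lost and 21.7% of common regions with a gained one, and lost regions have more common regions within 5 kb (13.5%) than gained regions have (7.38%).

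Dense runs were few. Counting runs of at least 4 regions of a class, each at most 50 kb from the next and with no region of the opposite class between them, there were 12 gained runs with 49 regions and 5 lost runs with 20 regions. The run with the most regions was at 1p35.2 (chromosome 1, 32116168 to 32221690) and held 5 gained regions over 106 kb, together with 2 common regions. The percentiles of its strongest member were 70.7, 87.6 and 76.4, and those of its weakest member 16.6, 6.42 and 23.03. No DMSO-treated sorted library had a peak in any of the 5, and 2 of them were in no sorted library. A tighter gained run at 2q14.3 (chromosome 2, 129119824 to 129163079) held 4 regions in 43.3 kb, 3 of which were in no sorted library. The tightest lost run, at 22q12.3 (chromosome 22, 36760725 to 36783156), held 4 regions in 22.4 kb, and each was called in at least 1 DMSO-treated sorted library.

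The classes were also counted on the scale of 1 Mb. Regions were placed in bins by their midpoint. Of 2834 bins with any region, 1985 held a gained region, 1396 a lost region and 1103 both. Among them, 225 had at least 3 gained and no lost regions, and 50 had at least 3 lost and no gained ones. Whether these counts differ from what the class sizes alone would give was not tested. Across bins, gained and lost counts rose weakly together (Spearman's rho 0.246), and both followed the count of common regions more closely (0.446 for gained and 0.488 for lost). These correlations are descriptions over bins that share libraries and the density of open chromatin.

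The fullest bins for both classes were neighbours at 2q35. From 216 to 217 Mb on chromosome 2 lay 11 gained and 4 lost regions, and in the next Mb 10 lost and 4 gained. Gained regions were 17.5% of the regions in the first bin, and lost regions 27.0% in the second. The band holds FN1, which encodes the matrix protein fibronectin, and IGFBP2 and IGFBP5, which encode binding proteins of insulin-like growth factors, but regions were not assigned to genes. The strongest gained members, at 216325158 to 216326116 and 216592536 to 216593750, had percentiles of 66.8, 91.7 and 69.1 and of 67.5, 71.3 and 67.5 in DTP a, b and c. Both were in no sorted library, as were 7 of the 11 gained members in all, beside 41.6% of all gained regions. The strongest lost member, from 217930461 to 217931649, had percentiles of 83.8, 80.3 and 83.8 in PC9 and was called in all 12 sorted libraries. When classes were formed anew from peaks with a score of at least 100, the first bin held 6 gained regions and the second 4 lost ones. Such recounts, here and below, can include regions outside the class of the full lists.

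At 13q31.1 the bin from 80 to 81 Mb held 10 gained regions, 1 lost and 10 common. Gained regions were 31.25% of all regions in it. The band holds SPRY2, which encodes a feedback inhibitor of receptor tyrosine kinase signalling. The strongest member (chromosome 13, 80195477 to 80196919) had percentiles of 88.9, 77.4 and 77.6, and the next (80341111 to 80341770) 71.2, 78.1 and 82.8. Of the 10 members, 8 were called in at least 1 erlotinib-treated sorted library, 4 in all 6, and none in any DMSO-treated one. Over all gained regions, 7.24% were in all 6 erlotinib-treated and no DMSO-treated ones. Formed anew, the bin held 8 gained regions with scores of at least 100 and 9 with lists of equal size.

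At 7p11.2 the bin from 55 to 56 Mb held 9 gained and 3 lost regions among 26 common ones. Gained regions were 18.75% of all regions in it. Besides the strong region described above, gained members at 55094324 to 55095483 and 55375334 to 55376771 had percentiles of 85.4, 91.6 and 74.1 and of 81.7, 75.8 and 82.4. The first was called in all 6 erlotinib-treated and 1 DMSO-treated sorted library, and the second in no sorted library. Of the 9, 3 were called in all 6 erlotinib-treated libraries. Formed anew, the bin held 8 gained regions with scores of at least 100 and 7 with lists of equal size.

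The bins at 7p12.3 (46 to 47 Mb on chromosome 7) and 16q12.1 (50 to 51 Mb on chromosome 16) also held 9 gained regions and 1 lost region each. At 7p12.3, 8 of the 9 were called in at least 1 erlotinib-treated sorted library. At 10q21.2 and 2q36.1 to 2q36.2, 3 and 4 of 9 gained members were. Formed anew with scores of at least 100, these bins held 2 and 1 gained regions, against 7 at 7p12.3 and 5 at 16q12.1. The share of all gained regions in at least 1 erlotinib-treated library is not given here, but 41.6% of them were in no sorted library.

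Among lost regions, the bin at 6p22.1 (chromosome 6, 27 to 28 Mb) held 7 lost and 1 gained. It also held 21 common regions and 37 of other pattern, so lost regions were 10.6% of it, beside 3.74% of all regions. This band holds part of the main cluster of histone genes. Its strongest lost member (27569446 to 27570907) had percentiles of 68.8, 75.05 and 76.4 in PC9 and was called in all 6 DMSO-treated and no erlotinib-treated sorted library, as the neighbour at 27543495 to 27544259 was. All 7 were called in at least 1 DMSO-treated library, while 16.4% of all lost regions were in no sorted library. Bins at 3q26.2 and 4q31.1 to 4q31.21 each held 7 lost and no gained regions, and one at 2q35 (219 to 220 Mb) held 9 lost and no gained. Formed anew with scores of at least 100, the last held 2 lost regions.

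Chromosomes differed in the balance of classes. Per 100 common regions, gained regions were most frequent on chromosome 13, with 28.1, and least on chromosome 22, with 8.88. Lost regions were least frequent on chromosome 19, with 3.80, where 76.4% of separated regions were gained. Chromosomes 21 and 22 were near balance, with 35 gained and 36 lost regions and 38 gained and 35 lost. Copy number of the line was not measured in these files.

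The sorted libraries, which played no part in the choice of regions, separated the classes by treatment. In the 6 DMSO-treated sorted libraries 3.22 to 6.51% of gained regions were called, and in the 6 erlotinib-treated ones 24.8 to 38.0%. By group, ALDH-low cells with DMSO had a share of 3.44 ± 0.237% and ALDH-high cells one of 5.89 ± 0.533%, rising to 29.9 ± 5.02% and 34.7 ± 5.30% respectively with erlotinib (SD, n = 3 each). Erlotinib-treated libraries were thus higher in 6 of 6 cases by a mean of 27.6 percentage points (exact two-sided permutation of treatment within fractions, p = 0.005, the smallest possible, and 0.0075 after Benjamini-Hochberg adjustment over 3 classes). ALDH-low cells rose by 26.4 points and ALDH-high cells by 28.8 points, a difference not past the threshold (permutation p = 0.67).

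Lost regions moved the other way. They were called in 28.2 to 47.2% with DMSO and 17.7 to 29.5% with erlotinib, ranges that overlap across fractions but not within either fraction. Group values were 29.9 ± 1.56% and 43.8 ± 3.00% for ALDH-low and ALDH-high cells with DMSO, and 22.8 ± 5.20% and 27.3 ± 3.68% with erlotinib (SD, n = 3 each). The mean difference was -11.8 points (exact permutation p = 0.005, adjusted 0.0075). ALDH-low cells differed by -7.12 points and ALDH-high cells by -16.5 points, and an exact permutation test found no difference between the fractions past the threshold (p = 0.245). Common regions were called in 80.9 to 89.95% with DMSO and 84.6 to 93.0% with erlotinib, a difference of 4.96 points (exact permutation p = 0.01, adjusted 0.01).

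List length moved with treatment, since DMSO-treated sorted lists held 26225 to 32819 peaks and erlotinib-treated ones 32583 to 40710. The sorted lists were therefore also cut to their 26225 highest-scoring peaks, with the regions unchanged. Gained regions were then called in 2.95 to 3.60% with DMSO and 17.0 to 17.5% with erlotinib. Lost regions were called in 27.9 to 32.4% and 10.6 to 11.7%. Both differences were thus present at equal length, and the ranges of the lost regions no longer overlapped.

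**Figure D4:**
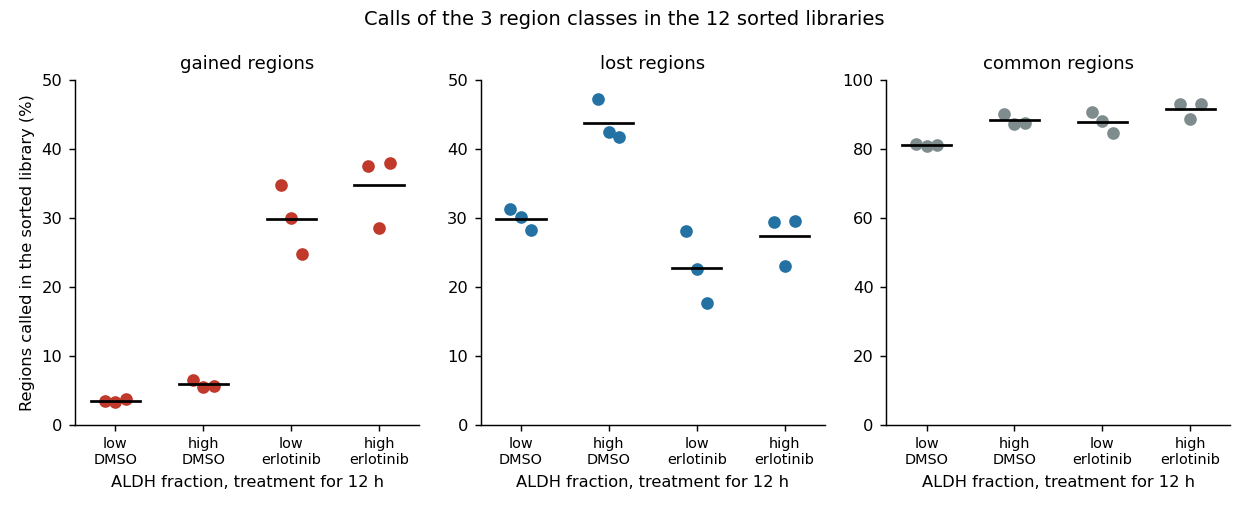
Share of the gained, lost and common regions (panels, in %) called in each of the 12 sorted libraries, by ALDH fraction and treatment for 12 h; each dot is a library and each line the mean of 3. Gained regions run from 3.22 to 6.51% with DMSO and 24.8 to 38.0% with erlotinib, while lost regions fall from 28.2 to 47.2% to 17.7 to 29.5%; the vertical axes of the first pair of panels end at 50%.

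Most gained regions were called in only some or none of the short-treated libraries. Of the 4473, 1861 (41.6%) were in no sorted library and 324 (7.24%) were in all 6 erlotinib-treated and no DMSO-treated ones. More erlotinib- than DMSO-treated libraries held 53.8% of them, and the reverse held for 2.37%. Of the lost regions 16.4% were in no sorted library, 52.0% were in more DMSO-treated libraries, and 21.2% were in more erlotinib-treated ones. Beside these, 26.6% of common regions were in more erlotinib-treated and 11.2% in more DMSO-treated libraries, so part of the lean to erlotinib among gained regions was shared by regions open in all 6 libraries. The 27 lost regions in all 6 DMSO-treated and no erlotinib-treated library were 1.09% of their class, beside 0.170% of common regions. Of the common regions, 0.476% were in no sorted library and 0.186% in all 6 erlotinib-treated and no DMSO-treated ones.

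Stronger regions were called more often in the sorted libraries. When gained regions were ordered by weakest percentile and divided into 3 equal parts, the erlotinib-treated ALDH-high libraries called 27.4 ± 5.76% of the lowest, 33.0 ± 5.51% of the middle and 43.6 ± 4.70% of the highest part (SD, n = 3). With DMSO no such gradient appeared, at 6.26 ± 0.970%, 5.88 ± 0.717% and 5.54 ± 0.140% in ALDH-high cells. For lost regions, the ALDH-high DMSO libraries called 29.3 ± 1.82%, 37.7 ± 4.03% and 64.4 ± 3.18% of the 3 parts. The ALDH-high erlotinib libraries called 21.6 ± 3.66%, 25.1 ± 3.82% and 35.2 ± 3.64% of them (SD, n = 3). Lost regions thus had a gradient with either treatment.

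Regions called in all 6 libraries also differed between persisters and PC9 in score rank. Ranks were taken among the 24171 common regions of each library, again as percentiles. In 4318 regions (17.9%) the 3 DTP ranks were all above the 3 PC9 ranks, and in 4280 (17.7%) all below. Requiring in addition a shift of the median by at least 10 points left 3601 regions (14.9%) higher and 3702 (15.3%) lower in DTP. The median range among the 3 libraries of a group was 16.2 points in DTP and 16.0 in PC9. Ranks were taken over the same regions in each library, so the near balance of the directions follows largely from the measure.

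The largest upward shift, of 93.3 points, was at 2p16.1 (chromosome 2, 56184846 to 56186525). Its ranks were 2.84, 2.53 and 3.64 in PC9 a, b and c and 96.2, 96.0 and 99.2 in DTP a, b and c, with called widths of 958, 836 and 937 bp against 1430, 1583 and 1309 bp. The second largest, of 89.7 points, lay at 7p11.2 (chromosome 7, 55187771 to 55189434), in the same bin as the 9 gained regions there. Ranks were 7.01, 6.28 and 7.30 in PC9 and 96.7, 95.9 and 99.3 in DTP, while the widths of 1428, 1530 and 1361 bp against 1644, 1459 and 1241 bp overlapped. A region at 14q23.3 (chromosome 14, 65105554 to 65106975) went from 5.74, 28.5 and 11.3 to 97.0, 97.4 and 98.8, and was called in all 6 erlotinib-treated and no DMSO-treated sorted library.

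The largest downward shift, of -93.2 points, was at 20q13.13 (chromosome 20, 46506692 to 46508092). Its ranks were 97.1, 94.3 and 96.2 in PC9 and 0.534, 2.96 and 4.58 in DTP, and its widths 1251, 1279 and 1284 bp against 663, 792 and 729 bp. At 2q37.1 (chromosome 2, 233897881 to 233899355) ranks fell from 97.8, 90.3 and 96.4 to 12.4, 20.02 and 6.88. Such regions ranked high among the common regions of one group and low among those of the other. They count as common because all 6 libraries had a peak there.

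Rank shifts followed the class of nearby separated regions. Of 4417 common regions with a gained but no lost region within 50 kb, 18.4% were shifted higher and 14.5% lower in DTP. Of 2726 with a lost but no gained region, 11.7% were shifted higher and 18.9% lower. The 16198 with neither had nearly equal shares, 14.6% and 14.7%. The 830 with both had 11.9% higher and 19.6% lower. The shares are descriptions, since neighbouring regions come from the same 6 libraries.

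**Figure D5:**
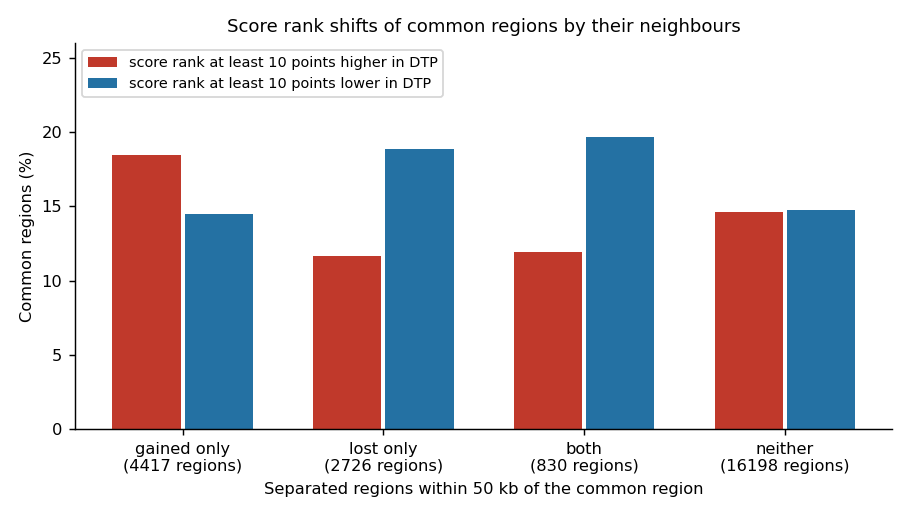
Share of common regions (in %) whose score rank was shifted by at least 10 points upward (red) or downward (blue) in DTP, by the separated regions within 50 kb. Upward shifts are the more frequent beside gained regions (18.4 against 14.5%) and downward shifts beside lost regions (18.9 against 11.7%), with near equality where neither is present (14.6 and 14.7%).

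Width changed past the test's threshold in few common regions. With limma on log2 called bases, centred on each library's median, 64 of 24171 regions were wider in DTP (0.265%) and 55 narrower (0.228%) at a Benjamini-Hochberg adjusted p below 0.05. An unadjusted p below 0.05 was reached by 3542. The calls ranged from 0.75 to 1.71 in log2 among the wider regions. The median score rank differed in the same direction, by any amount, in 49 of the 64 wider and 51 of the 55 narrower ones. By the rule for shifts given above, without overlap and by at least 10 points, 33 and 30 of them were shifted that way. Peak number differed between libraries in 22 of the wider and 15 of the narrower regions, where a gap inside the region and a change of its edges cannot be told apart. Leaving out any 1 library moved both counts by over 1.5 times, down to 1 wider and 2 narrower regions without DTP c.

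The most widened region was at 2p13.3 (chromosome 2, 70024784 to 70026960). Its called widths were 524, 557 and 587 bp in PC9 and 1796, 1738 and 2177 bp in DTP, without overlap (log2 difference 1.71, SE 0.14, limma adjusted p = 0.0105). Its score rank also rose, by 42.3 points. It was called in 3 of the 6 erlotinib-treated sorted libraries and in none of the DMSO-treated ones. At 4q32.1 (chromosome 4, 159730873 to 159732658) the widths were 568, 535 and 624 bp in PC9 and 1613, 1662 and 1742 bp in DTP.

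The narrower call with the smallest p was at 2q35 (chromosome 2, 216273828 to 216276337), inside the bin with the most gained regions. It was called at 2339, 2266 and 2097 bp in PC9, each time as 2 peaks, and at 982, 1006 and 846 bp in DTP, each time as 1 (log2 difference -1.30, SE 0.13, limma adjusted p = 0.0105). The change thus included the loss of a whole peak. At 15q25.2 (chromosome 15, 83955945 to 83958110) the region was a single peak in all 6 libraries, of 2144, 2067 and 2152 bp in PC9 and 672, 958 and 808 bp in DTP, and its score rank changed by -57.4 points. At 2p21 (chromosome 2, 47418614 to 47420784) a single peak of 2112, 2117 and 2149 bp measured 1042, 988 and 1081 bp in DTP, with a rank change of -9.12 points.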

How the data were processed

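Each of the 18 libraries came with 1 peak list; the 6 PC9 and DTP lists define the regions and the 12 sorted lists were used to look up calls. Per the submitters' processing notes, processing used BWA, MACS 1.4.2 and hg19. Trimming, duplicate removal, transposase shifting and calling parameters were not given in the sources used here. The deposited score of each peak is the authors' caller's value on an unstated scale, used only within a list, for ranks or as a minimum. Read depth is unknown, so no counting interval is given.

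Regions were formed in Python 3.11.15 and checked against bedtools 2.31.1, which gave the same 66412 regions. Called width was the bases of a library's peaks within a region, and its score the highest of those peaks. Single values were compared by exact permutation over libraries, and common-region widths by limma 3.58.1 with Benjamini-Hochberg adjustment. On simulated widths of this comparison over 24171 regions, limma recovered 104 of 200 regions changed by 1 in log2 with 7 false calls, and 0 of 200 changed by 0.5. Same-lettered libraries did not deviate together (correlations -0.009, -0.004 and -0.007), so letters were not taken as pairs.

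Members, thresholds and lists were chosen with earlier results of these data known. Regions named in the text come, per direction, from the 20 with the highest weakest percentile, the 8 widest, the 8 longest runs, the 8 fullest bins, the 10 common regions with the smallest adjusted p for width and the 5 with the largest rank shift. Bands come from the hg19 table in circlize 0.4.16. No hg19 gene annotation or sequence was used, so promoters, gene lists and motifs were not run, and genes named are background on a band. Alternatives covered score and coverage minimums, merging, list size, left-out libraries, centring, distances and a replicate block. Their use for neighbour direction, bin counts and the class of named regions was added after seeing the data.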

Additional observations from a re-analysis of the deposited data

How the results depend on the processing

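The numbers of gained, lost and common regions stayed within 1.5 times of those given under every alternative run. Gained regions numbered 3106 with scores of at least 100, 4703 at 50% coverage and 4388 when merged up to 500 bp apart, and lost regions 1929, 2518 and 2349. With 1 library left out, gained ran from 5065 to 6109, lost from 2905 to 3539 and common from 24859 to 25360. Of the 20 strongest gained and 20 strongest lost regions, 19 of each kept their class at 50% coverage and all kept it with merging up to 500 bp; leaving out a library, a score of at least 100 or lists of equal size could not change it.

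Width calls were less stable. Wider and narrower regions numbered 36 and 35 with scores of at least 100, 29 and 27 with 1 peak per library, and 80 and 38 without centring. Leaving out a library gave 1 to 30 wider and 2 to 19 narrower regions, with fewer libraries in the fit; without DTP c all but 1 of the 10 named wider regions missed the threshold, with differences between 1.14 and 1.54 in log2. With letters as a replicate block, limma called 0 and 0 (smallest adjusted p = 0.0647, 3356 regions at an unadjusted p below 0.05); the letters share only a name. The same block left the sorted differences at 27.6 and -11.8 points (exact permutation p = 0.03125 each, the smallest it allows).

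Leaving out 1 sorted library gave differences of 26.4 to 29.1 points for gained and -13.1 to -10.5 points for lost regions. With the sorted lists cut to equal size and the regions unchanged, they were 14.1 and -19.8 points. The direction held in each of these and with sorted peaks covering at least 50% of a region, at 27.2 and -11.9 points. Shares of gained and lost regions with one of their class within 50 kb were 20.1% and 18.7% with lists of equal size, so the order between them narrowed. Unknown depth limits all absences.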

Other observations

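Close exchanges of a gained for a lost region were uncommon. Within 2 kb of each other lay 52 gained and 51 lost regions, 1.16% and 2.06% of their classes. The shares were 3.76% and 6.85% within 10 kb. Neighbours of the same class were rarer still within 2 kb, where 22 gained and 4 lost regions had one. Within 10 kb, 5.43% of gained and 3.95% of lost regions had a neighbour of their own class.

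Gained regions without a call in the sorted libraries after 12 h of erlotinib were not all weak in persisters. In the 1 Mb bin at 10q21.2, 6 of 9 gained regions were in no erlotinib-treated sorted library, among them one at the 97.1 percentile in its weakest persister library.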
